A study of Mus musculus with 24 samples.

Results

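The genes described here were 9 subunits of Polycomb repressive complex 1 (PRC1), namely Ring1, Rnf2, Pcgf1, Pcgf2, Pcgf6, Bmi1, Cbx2, Cbx7 and Cbx8. They were taken by name from a table of 35591 genes. Their transcripts were counted by poly(A) RNA sequencing in 24 libraries from 6 male mouse embryonic stem cell (mESC) lines, sampled at 4 times (days 0, 2, 2.5 and 3) during their differentiation towards neuromesodermal progenitors (NMPs), which give rise to spinal cord and trunk mesoderm. In 3 lines both copies of Smchd1 were functional (genotype Smchd1[fl/+], called wt), and in 3 lines 1 copy was deleted (Smchd1[del/+], called het), giving 8 groups of 3 libraries. All 6 lines came from a cross of a Castaneus mother with an Smchd1 del/fl father of the C57BL/6 strain that carried Cre under the MMTV promoter, so the oocytes had normal SMCHD1 and the deleted or floxed allele was the paternal one. Each line came from a single blastocyst and stands for 1 replicate. Lines grown in 2i + LIF medium were moved stepwise into DMEM with serum and LIF before day 0, bFGF in N2B27 medium was given from the start of differentiation, and the Wnt activator CHIR99021 was added at day 2.

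PRC1 is a ubiquitin ligase that places a single ubiquitin on histone H2A at lysine 119 and helps keep developmental genes, the Hox clusters among them, silent. Every form of the complex has a RING subunit, RING1 or RNF2 (also called RING1B), paired with one PCGF protein. Forms built on PCGF2 or BMI1 (PCGF4) may carry a CBX protein that binds H3K27me3, the mark of PRC2, and are called canonical, whereas forms built on PCGF1, PCGF6 and the remaining PCGF proteins carry RYBP or YAF2 and are called variant. In embryonic stem cells CBX7 is known as the prevailing CBX protein, and CBX2 and CBX8 are associated with differentiated cells. SMCHD1 is a silencing factor that binds chromatin, and at the inactive X chromosome its recruitment depends on PRC1.

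Library totals ranged from 7102655 to 20818018 counts, with the smallest in wt line 2 at day 2.5, and replicates of a group correlated at 0.967 to 0.991 in log2 CPM (counts per M counts, M for mega) across genes, which are not independent replicates. Levels below are CPM scaled with TMM composition factors, and values of a group are listed in the order of lines 1, 2 and 3. The summed level of 6 naive pluripotency markers was 1143 to 1366 CPM at day 0 and 110.3 to 176 CPM at day 2, and that of 6 NMP markers was 2.60 to 6.77 CPM at day 2 and 666 to 1285 CPM at day 2.5. The summed level of 10 endoderm markers was 1256 to 2222 CPM in wt and 619 to 982 CPM in het at day 0, and 4283 to 8825 CPM and 2554 to 3606 CPM at day 2, without overlap between the genotypes or between the days. At days 2.5 and 3 it was 3035 to 8429 CPM in wt and 2212 to 4963 CPM in het, and none of the 10 was at 0 in every library of any group. All 3 marker sums moved with the days, as several of the genes described below did, and the part of the markers in those changes, or in any difference between the genotypes, was not tested. In bulk libraries fewer cells of a type and less RNA per cell cannot be told apart. Smchd1 was lower in het in every comparison by genotype and in edgeR, with the days of a line added up, its log2 fold change was -0.76 ± 0.07 (adjusted p 0.00556). That call was lost without wt line 3, het line 2 or het line 3 (adjusted p 0.0511, 0.0533 and 0.105), where the value stayed between -0.76 and -0.73. By day it was called at day 2 (-0.75 ± 0.09, adjusted p 0.00824) and day 3 (-0.88 ± 0.10, adjusted p 0.0307) and not at day 0 (-0.61 ± 0.08, adjusted p 0.100) or day 2.5 (-0.60 ± 0.11, adjusted p 0.907). At day 0 it was called in 6 of 12 alternatives, the DESeq2 Wald test (adjusted p 1.17e-07) and the fit without the filter (7.51e-08) among them, and at day 2.5 in 3 of 12 (0.0393 and 0.00246 in the same order, and 0.0176 in one fit of all 24 libraries). The call at day 2 was lost without any 1 het line, and that at day 3 without wt line 2, wt line 3, het line 1 or het line 3 (highest adjusted p 0.0740 and 0.444). Log2 fold changes are given ± SE, and levels and ratios ± SD over 3 lines.

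From day 0 to day 3 some of the PRC1 subunit transcripts rose and some fell, in wt and in het lines. The numbers called were near the shares of all genes given below. Bmi1 had the largest rise by fold in both genotypes, Rnf2 rose by less, and Cbx7, Pcgf6 and Pcgf2 fell. In wt, 2 of the 9 were higher and 3 lower at day 3 than at day 0 (edgeR quasi-likelihood test, adjusted p under 0.05 here and throughout), against 27% of all genes higher and 26.6% lower. In het, 3 were higher and 3 lower, against 32.7% and 31.6% of all genes, the additional gene being Pcgf1. The median log2 fold change of the 9 was 0.24 in wt and 0.22 in het, and that of all genes tested was 0.03 and 0.02. All 9 passed the filter on low counts in each comparison. The libraries of day 0 and day 3 did not overlap for 5 of the 9 in wt and 7 in het (background 62.7% and 70.00% of all genes), and those of day 0 and day 2 for 5 and 7 (background 54.8% and 63.3%). Between day 0 and day 2, 1 subunit rose and 3 fell in wt (background 22.4% and 21.9%), and 2 rose and 3 fell in het (background 28% and 28.1%). From day 2 to day 2.5, after Wnt activation, 1 rose and 1 fell in wt (background 14.6% and 14.5%), and 2 rose and 1 fell in het (background 21.8% and 22.9%). From day 2.5 to day 3, 1 rose and 1 fell in wt (background 8.99% and 10.1%), and 1 rose and 2 fell in het (background 13.8% and 16%). Steps that meet at a day share the libraries of that day and are not independent, and in the step to day 3 in wt pairing of the days by line raised the genes called from 2923 to 4687 while the subunits called stayed at 2.

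**Figure D1:**
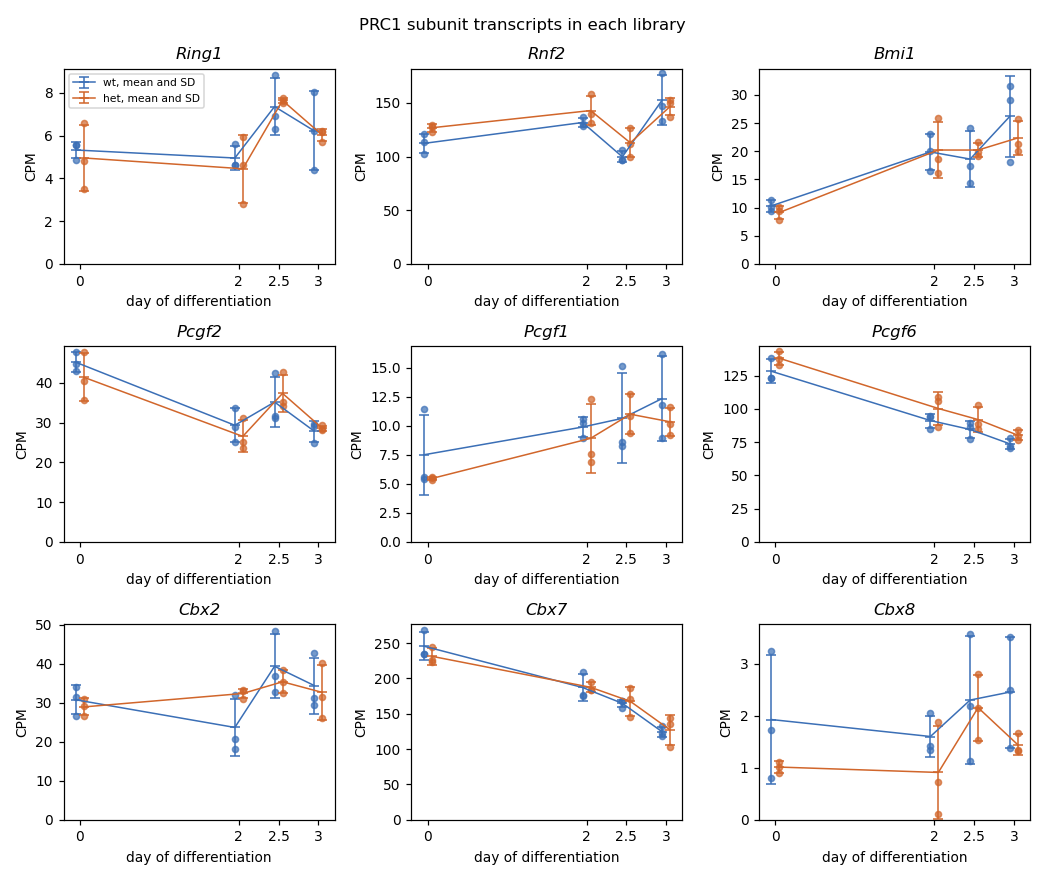
Levels of the 9 subunits in CPM (vertical axes start at 0) against day of differentiation, with a point for each library, wt in blue and het in orange, and lines with bars for the mean and SD of 3 lines. Bmi1 lies between 7.87 and 11.4 CPM in the 6 libraries of day 0 and at 18.01 CPM or more in those of day 3, while Cbx7 declines from 223 CPM or more to 144 CPM or less.

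The levels of the subunits differed widely. Levels between genes were compared as CPM per kilobase of annotated exon. At day 0 in wt, Cbx7 was highest at 37.9 ± 2.99 CPM per kb, followed by Rnf2 at 27.2, Pcgf6 at 25.5, Pcgf2 at 12.8, Cbx2 at 7.22, Pcgf1 at 4.54, Bmi1 at 2.59, Ring1 at 1.64 and Cbx8 at 0.525 (mean or mean ± SD, n = 3). In this order the libraries of Rnf2 and Pcgf6 overlapped, as did those of Cbx2 and Pcgf1, and the other neighbours did not overlap. By day 3 in wt, Rnf2 was highest at 36.97 ± 5.59 CPM per kb, above Cbx7 at 19.2 and Pcgf6 at 14.7. Cbx2, Pcgf2, Pcgf1 and Bmi1 followed at 8.08, 7.89, 7.48 and 6.59 CPM per kb, and each overlapped its neighbour. Ring1 at 1.92 and Cbx8 at 0.669 CPM per kb again came last. The order at day 0 and the top 3 at day 3 were the same in het.

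Of the catalytic RING subunits, Rnf2 made up nearly all of the transcript. Rnf2 (ENSMUSG00000026484, GRCm38.p6 chromosome 1, 151458004 to 151500955, minus strand) supplied 94.3 ± 0.779% of the summed per-kb level of the RING genes in wt and 95.3 ± 1.52% in het at day 0, and 94.9 ± 2.07% and 95.02 ± 0.432% at day 3. At day 0 Rnf2 was at 103, 121 and 113 CPM in the wt lines and 128, 123 and 129.6 CPM in the het lines. At day 2 Rnf2 was at 130.0, 129 and 137 CPM in the wt lines and 139.6, 131 and 158 CPM in the het lines, and every library lay above those of day 0 of its genotype, but this step was not called (0.24 ± 0.10, adjusted p 0.0744 in wt, and 0.19 ± 0.08, adjusted p 0.0507 in het). At day 2.5 Rnf2 was at 96.4, 97.3 and 106 CPM in the wt lines and 99.8, 112 and 127 CPM in the het lines, so that each line had fallen below its own value of day 2. At day 3 Rnf2 was at 133, 147 and 178 CPM in the wt lines and 153, 137 and 150.0 CPM in the het lines, and every line had risen again, above its value of day 0. The dip and the recovery were called in both genotypes. From day 2 to day 2.5 the log2 fold change was -0.39 ± 0.11 (adjusted p 0.0185) in wt and -0.35 ± 0.10 (adjusted p 0.0136) in het. From day 2.5 to day 3 it was 0.60 ± 0.12 (adjusted p 0.00816) in wt and 0.34 ± 0.10 (adjusted p 0.0189) in het. Over the whole course the change of Rnf2 was 0.45 ± 0.12 (adjusted p 0.00603) in wt and 0.22 ± 0.07 (adjusted p 0.00997) in het, a rise in both. With 2 lines in a genotype these calls were less secure. In wt, the dip was lost without line 2 or line 3 (adjusted p 0.116 and 0.0964), the recovery likewise (0.132 and 0.0672), and the whole rise without line 3 (0.158). In het, the dip was lost without line 1 (adjusted p 0.165) or with library totals in place of TMM factors (0.0514). The het recovery was lost without line 1 or line 2 (0.146 and 0.0656), and the whole rise without line 1 or line 3 (0.0517 and 0.0724) and in one fit of all 24 libraries (0.0812), while library totals gave a log2 fold change of 0.34. The exons of Rnf2 overlap those of Trmt1l on the other strand, and whether reads there were counted by strand is not given in the sources used here.

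Ring1 (ENSMUSG00000024325, chromosome 17, 34020792 to 34024680, minus strand), the paralog of Rnf2, had 43 to 176 counts per library. At day 0 Ring1 was at 5.55, 4.88 and 5.56 CPM in the wt lines and 3.49, 6.57 and 4.81 CPM in the het lines. At day 2 Ring1 was at 4.61, 5.60 and 4.65 CPM in the wt lines and 5.95, 4.61 and 2.79 CPM in the het lines, overlapping day 0 in both genotypes. At day 2.5 Ring1 was at 8.84, 6.32 and 6.93 CPM in the wt lines and 7.76, 7.64 and 7.55 CPM in the het lines, above every library of day 2 in both genotypes. At day 3 Ring1 was at 8.06, 6.23 and 4.37 CPM in the wt lines and 5.70, 6.16 and 6.22 CPM in the het lines, and each of the 6 lines was lower than at day 2.5. Only the step to day 2.5 was called, and in het alone. Its log2 fold change was 0.77 ± 0.28 (adjusted p 0.0385) in het and 0.59 ± 0.28 (adjusted p 0.136) in wt, and the difference between the genotypes in this step was not called (interval -0.62 to 1.00, adjusted p 0.982). The het call was lost without line 2 or line 3 (adjusted p 0.131 and 0.163). At day 2.5, where Rnf2 dipped, the mean of Ring1 was highest in both genotypes. The log2 ratio of Rnf2 to Ring1 per kb within a library was 4.39 ± 0.19 in wt and 4.72 ± 0.67 in het at day 2, and 3.43 ± 0.28 and 3.53 ± 0.19 at day 2.5 (SD, n = 3), before it returned to 4.30 ± 0.66 and 4.26 ± 0.13 at day 3.

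The canonical PCGF subunits, Bmi1 and Pcgf2, moved in opposite directions. Bmi1 (ENSMUSG00000026739, chromosome 2, 18677018 to 18686629, plus strand) and Pcgf2 (also called Mel18, ENSMUSG00000018537, chromosome 11, 97688823 to 97700497, minus strand) encode close paralogs that take the same place in the complex. Because the results turn on this pair, the 250 bases before a RefSeq start of each are shown. They are on the strand of the gene, in build GRCm38.p6. The window of Bmi1 is chr2:18676768-18677017 and that of Pcgf2 is chr11:97699649-97699898. The latter lies within the annotated span of Pcgf2 and covers none of its exons. Capitals mark CACGTG, a palindromic E-box that reads the same on both strands.
Bmi1: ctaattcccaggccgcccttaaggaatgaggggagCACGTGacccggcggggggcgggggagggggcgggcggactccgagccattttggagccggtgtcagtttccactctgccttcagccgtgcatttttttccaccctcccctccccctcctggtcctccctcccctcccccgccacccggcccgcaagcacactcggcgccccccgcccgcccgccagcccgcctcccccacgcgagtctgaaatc
Pcgf2: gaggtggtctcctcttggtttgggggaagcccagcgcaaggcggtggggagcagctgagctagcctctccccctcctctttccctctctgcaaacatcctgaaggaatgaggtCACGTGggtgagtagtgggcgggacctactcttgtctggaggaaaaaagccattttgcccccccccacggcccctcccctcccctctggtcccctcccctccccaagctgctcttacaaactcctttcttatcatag
Each window held 1 CACGTG. Such RefSeq windows were matched for 7 of the 9 subunits, and not for Pcgf1 and Cbx2. CACGTG was present in 3 of the 7 (Bmi1, Pcgf2 and Cbx8) and in 6.02% of all 32841 windows of the same length. That share was not matched for CpG content, and whether the motif is more frequent in the subunits was not tested. The Bmi1 window had 21 CpG dinucleotides, more than 83.6% of all windows, and the Pcgf2 window had 5, close to the median of 6. The Bmi1 window ends next to the annotated start of its gene, whereas that of Pcgf2 lies inside its gene. These counts are therefore not like for like.

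Bmi1 was low at day 0, at 10.03, 11.4 and 9.46 CPM in the wt lines and 7.87, 10.1 and 9.36 CPM in the het lines. At day 2 Bmi1 was at 23.02, 20.1 and 16.5 CPM in the wt lines and 18.7, 16.1 and 25.8 CPM in the het lines, and every library exceeded all those of day 0. At day 2.5 Bmi1 was at 14.4, 17.3 and 24.1 CPM in the wt lines and 19.8, 21.6 and 19.2 CPM in the het lines, within or near the range of day 2. At day 3 Bmi1 was at 18.01, 29.1 and 31.5 CPM in the wt lines and 19.98, 21.3 and 25.7 CPM in the het lines, with wt line 1 below the other wt lines. The log2 fold change of Bmi1 from day 0 to day 2 was 0.95 ± 0.20 (adjusted p 0.00169) in wt and 1.16 ± 0.20 (adjusted p 0.000125) in het. By day 3 it was 1.35 ± 0.22 (adjusted p 0.000228) in wt and 1.31 ± 0.15 (adjusted p 8.24e-06) in het, a rise of 2.56-fold and 2.48-fold. These 4 calls were kept in every alternative tried. Of the 75-base stretches of the Bmi1 transcript, 88.8% occur in no other gene's transcripts, and the rest are shared with the predicted gene Gm5946, which makes its level uncertain to that extent.

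Pcgf2 was at 42.9, 47.8 and 44.8 CPM in the wt lines and 47.9, 35.8 and 40.5 CPM in the het lines at day 0. At day 2 Pcgf2 had dropped to 33.7, 25.2 and 28.99 CPM in the wt lines and 31.1, 23.5 and 25.00 CPM in the het lines, below every library of day 0. At day 2.5 Pcgf2 was at 42.5, 31.7 and 31.2 CPM in the wt lines and 42.7, 35.2 and 34.1 CPM in the het lines, and each of the 6 lines was higher than at day 2. At day 3 Pcgf2 was at 24.7, 29.04 and 29.7 CPM in the wt lines and 28.3, 28.2 and 29.3 CPM in the het lines, and each line was lower again. From day 0 to day 2 the log2 fold change was -0.61 ± 0.15 (adjusted p 0.00394) in wt and -0.63 ± 0.14 (adjusted p 0.00118) in het, and from day 0 to day 3 it was -0.69 ± 0.13 (adjusted p 0.000771) and -0.52 ± 0.11 (adjusted p 0.00139). The recovery at day 2.5 was called in het (0.49 ± 0.14, adjusted p 0.0110) and not in wt (0.28 ± 0.18, adjusted p 0.274), as was the fall that followed (-0.42 ± 0.11, adjusted p 0.0141 in het, and -0.35 ± 0.16, adjusted p 0.153 in wt). Neither difference between the genotypes was called by the interaction test (intervals -0.27 to 0.71 and -0.47 to 0.37). The wt fall to day 2 was lost without line 2 or line 3 (adjusted p 0.0565 and 0.0532), and the het recovery without line 2 (0.0698). The het fall to day 3 from day 2.5 was lost without line 1, line 2 or line 3 (0.108, 0.0539 and 0.0567) and in one fit of all 24 libraries (0.0542).

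Within a library the balance of the pair shifted towards Bmi1. The log2 ratio of Bmi1 to Pcgf2 per kb was -2.31 ± 0.09 in wt and -2.35 ± 0.40 in het at day 0, and -0.30 ± 0.29 and -0.53 ± 0.16 at day 3 (SD, n = 3). In linear terms Pcgf2 exceeded Bmi1 by 4.95-fold in wt at day 0 and by 1.23-fold at day 3, and in het by 5.10-fold and 1.45-fold. The ratio is formed within a library and does not depend on scaling between libraries. At day 2 the ratio was -0.74 ± 0.24 in wt and -0.58 ± 0.41 in het, and at day 2.5 it was -1.11 ± 0.59 and -1.05 ± 0.20, with overlap of the libraries and wt line 3 higher at day 2.5 than at day 2, against the other lines.

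**Figure D2:**
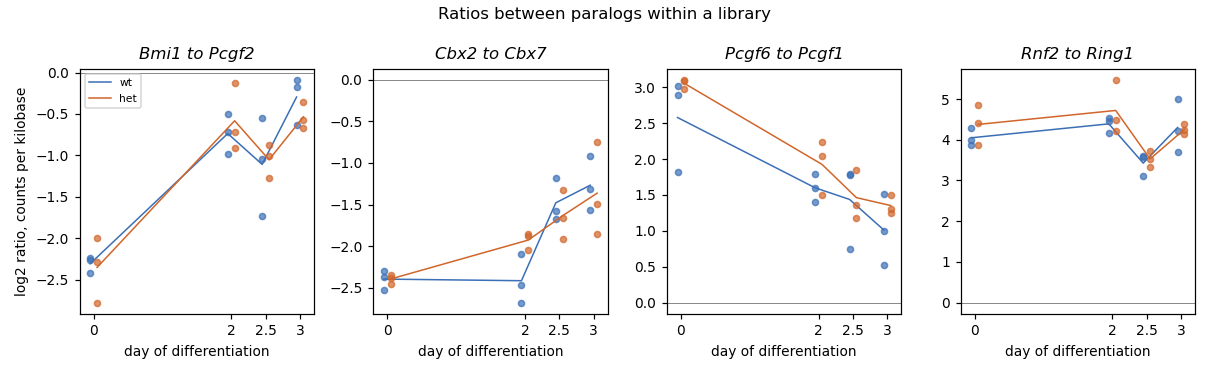
Log2 ratio of counts per kilobase between paralogs within each library (vertical axes) against day, with a point for each library and a line through the mean of 3 lines, wt in blue and het in orange. The Bmi1 to Pcgf2 ratio rises from a wt mean of -2.31 to -0.30 and the Pcgf6 to Pcgf1 ratio falls from 2.58 to 1.01, with het alongside.

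Of the variant PCGF subunits, Pcgf6 fell in both genotypes and Pcgf1 rose in het. Pcgf6 (ENSMUSG00000025050, chromosome 19, 47033617 to 47050906, minus strand), whose complex includes MGA, MAX, E2F6 and L3MBTL2, was the most abundant PCGF gene at each day and declined. At day 0 Pcgf6 was at 123, 139 and 123 CPM in the wt lines and 143, 133 and 138 CPM in the het lines. At day 2 Pcgf6 was at 85.1, 94.03 and 94.5 CPM in the wt lines and 86.04, 106 and 109 CPM in the het lines, below every library of day 0. At day 2.5 Pcgf6 was at 89.3, 77.6 and 86.5 CPM in the wt lines and 88.3, 84.8 and 103 CPM in the het lines, overlapping day 2. At day 3 Pcgf6 was at 72.3, 70.8 and 77.9 CPM in the wt lines and 76.7, 84.1 and 79.7 CPM in the het lines, and every line was lower than at day 2.5. The log2 fold change from day 0 to day 2 was -0.48 ± 0.11 (adjusted p 0.00201) in wt and -0.45 ± 0.09 (adjusted p 0.000484) in het, and from day 0 to day 3 it was -0.79 ± 0.10 (adjusted p 2.85e-05) and -0.77 ± 0.07 (adjusted p 7.9e-07). These 4 calls were also kept in every alternative. The share of Pcgf6 in the summed per-kb level of the 6 PCGF genes went from 45.2 ± 1.36% to 28.01 ± 3.99% in wt and from 49.3 ± 0.698% to 30.6 ± 1.14% in het (SD, n = 3), and that of Bmi1 from 4.59 ± 0.226% to 12.3 ± 2.24% and from 4.14 ± 0.716% to 10.8 ± 1.04%. In wt the mean shares of Pcgf1 (8.07% to 14.2%), Pcgf5 (6.40% to 13.2%) and Pcgf3 (13.02% to 17.3%) rose too. That of Pcgf2 fell (22.7% to 14.96%), and all of these went the same way in het.

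Pcgf1 (ENSMUSG00000069678, chromosome 6, 83077869 to 83080855, plus strand), the partner of KDM2B and BCOR in the variant complex that binds unmethylated CpG islands, had 75 to 268 counts per library. At day 0 Pcgf1 was at 11.5, 5.59 and 5.42 CPM in the wt lines and 5.46, 5.55 and 5.34 CPM in the het lines, with wt line 1 at about the level of later days. At day 2 Pcgf1 was at 10.6, 8.91 and 10.2 CPM in the wt lines and 6.86, 12.3 and 7.53 CPM in the het lines. At day 2.5 Pcgf1 was at 8.57, 15.1 and 8.22 CPM in the wt lines and 12.8, 10.8 and 9.37 CPM in the het lines. At day 3 Pcgf1 was at 11.8, 16.2 and 8.98 CPM in the wt lines and 10.2, 11.6 and 9.22 CPM in the het lines, and each of the 6 lines was above its own day 0. In het the rise was called from day 0 to day 2 (0.73 ± 0.26, adjusted p 0.0261) and to day 3 (0.94 ± 0.18, adjusted p 0.000470). In wt the corresponding log2 fold changes were 0.40 ± 0.31 (adjusted p 0.318) and 0.72 ± 0.33 (adjusted p 0.0804) and were not called. Without wt line 1 they were 0.81 (adjusted p 0.0369) and 1.22 (adjusted p 0.00657), and both passed. Without line 2 they were 0.30 (adjusted p 0.588) and 0.29 (adjusted p 0.587), and without line 3 0.17 (adjusted p 0.810) and 0.70 (adjusted p 0.189). The wt change to day 3 also passed with the days paired by line as a replicate block (adjusted p 0.0397), without the filter on low counts (0.0187) and in one fit of all 24 libraries (0.0326). In het the change to day 2 was lost without line 2 (0.43, adjusted p 0.247). The difference between the genotypes in the change to day 3 was not called (interval -0.62 to 1.03). The log2 ratio of Pcgf6 to Pcgf1 per kb went from 2.58 ± 0.66 at day 0 to 1.01 ± 0.50 at day 3 in wt, and from 3.05 ± 0.07 to 1.35 ± 0.13 in het. Only 79.6% of the 75-base stretches of Pcgf1 are unique to it, the others being shared with the predicted gene Gm8930, which makes its level uncertain.

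Among the CBX subunits, which read H3K27me3 in canonical PRC1, Cbx7 was the most abundant and fell from day 0 to day 3. Cbx7 (ENSMUSG00000053411, chromosome 15, 79915807 to 79971119, minus strand) was at 268, 234 and 235 CPM in the wt lines and 245, 223 and 226 CPM in the het lines at day 0. At day 2 Cbx7 was at 177, 209 and 175 CPM in the wt lines and 196, 184 and 183 CPM in the het lines, below every library of day 0. At day 2.5 Cbx7 was at 167, 168 and 159 CPM in the wt lines and 170.4, 186 and 146 CPM in the het lines, and 5 of the 6 lines were lower than at day 2. At day 3 Cbx7 was at 123, 132 and 119 CPM in the wt lines and 103, 144 and 135 CPM in the het lines, below every library of day 2.5. The fall from day 0 to day 3 had a log2 fold change of -0.97 ± 0.10 (adjusted p 5.17e-06) in wt and -0.85 ± 0.11 (adjusted p 1.3e-05) in het, and was called in every alternative. From day 0 to day 2 it was -0.39 ± 0.11 (adjusted p 0.00968) in wt and -0.29 ± 0.06 (adjusted p 0.00112) in het, and from day 2.5 to day 3 it was -0.41 ± 0.10 (adjusted p 0.0160) and -0.43 ± 0.13 (adjusted p 0.0233). In wt the first step was lost without line 1 or line 3 (adjusted p 0.0797 and 0.0888) and the last without line 2 or line 3 (0.122 and 0.116). In het the last step was lost without line 1 (where it was -0.29), line 2 or line 3 (adjusted p 0.128, 0.0544 and 0.0506). Apobec3, on the other strand, shares exon positions with Cbx7.

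Cbx2 (ENSMUSG00000025577, chromosome 11, 119022962 to 119031270, plus strand), known for compacting chromatin, showed no net change that passed the test. At day 0 Cbx2 was at 34.1, 26.7 and 31.4 CPM in the wt lines and 30.9, 26.6 and 29.2 CPM in the het lines. At day 2 Cbx2 was at 18.2, 32.00 and 20.8 CPM in the wt lines and 31.01, 32.9 and 33.2 CPM in the het lines, with wt lines 1 and 3 below the het lines and wt line 2 among them. At day 2.5 Cbx2 was at 48.4, 36.8 and 32.7 CPM in the wt lines and 35.4, 32.4 and 38.3 CPM in the het lines. At day 3 Cbx2 was at 42.6, 29.3 and 31.3 CPM in the wt lines and 40.2, 26.1 and 31.5 CPM in the het lines, overlapping day 0 in both genotypes. In wt, Cbx2 rose from day 2 to day 2.5 with a log2 fold change of 0.75 ± 0.22 (adjusted p 0.0225), and the call was lost without line 1 (0.40, adjusted p 0.179) or line 3 (0.78, adjusted p 0.0651), while without line 2 it was 1.07. The het change in that step was 0.12 ± 0.12 (adjusted p 0.413). The change from day 0 to day 3 was not called in either genotype (intervals -0.19 to 0.54 in wt and -0.12 to 0.49 in het). The log2 ratio of Cbx2 to Cbx7 per kb went from -2.40 ± 0.12 to -1.27 ± 0.33 in wt and from -2.39 ± 0.06 to -1.36 ± 0.56 in het.

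Cbx8 (ENSMUSG00000025578, chromosome 11, 119036305 to 119040969, minus strand), the neighbour of Cbx2, was near the limit of detection, with 2 to 61 counts per library. It was at 0.810, 1.72 and 3.25 CPM in wt and 0.900, 1.02 and 1.12 CPM in het at day 0, and at 1.37, 3.51 and 2.49 and 1.34, 1.32 and 1.68 CPM at day 3. No step was called, and the intervals of its log2 fold change from day 0 to day 3, -0.91 to 1.64 in wt and -0.35 to 1.40 in het, left room for a change as large as that of Bmi1 in wt. No change in Cbx8 was detected. The library het line 2 at day 2 had 2 counts, under the 3 counts taken as the floor.

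**Figure D3:**
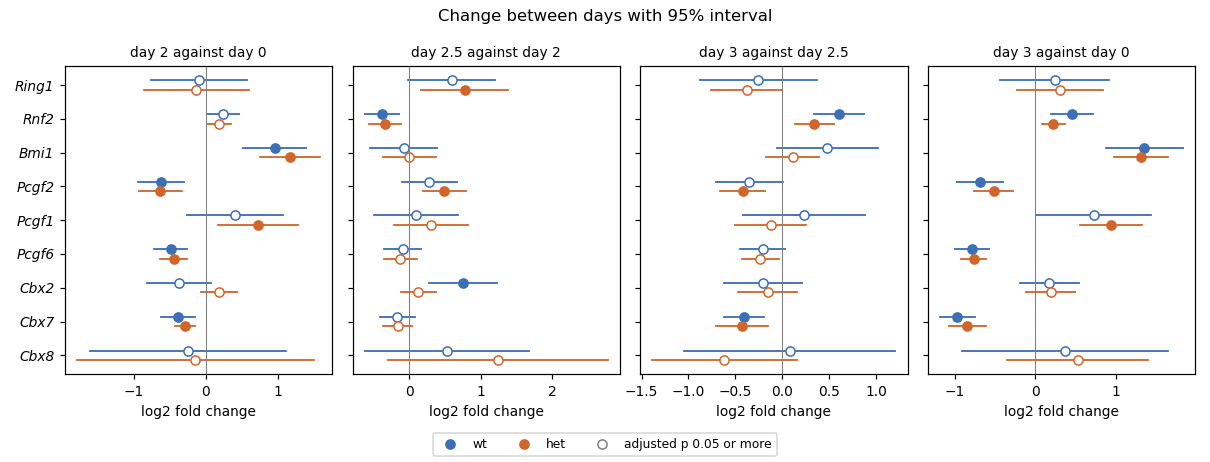
Log2 fold change of each subunit between days (horizontal axes) with its 95% interval, for wt in blue and het in orange, in 4 panels for the 3 steps and the whole course. Filled points passed an adjusted p under 0.05 and open points did not. For day 3 against day 0, Bmi1 lies at 1.35 in wt and 1.31 in het and Cbx7 at -0.97 and -0.85, while Cbx2 lies at 0.75 in wt and 0.12 in het for day 2.5 against day 2.

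Het was compared with wt to ask whether loss of a single Smchd1 allele altered the level of any subunit. None of the 9 was called by edgeR at any day. The genes called among all genes tested were 0% at day 0, 0.551% at day 2, 0% at day 2.5, 0.00638% at day 3 and 0.00544% in the sums over days, so the background was itself close to none. With an unadjusted p under 0.05, 1 of the 9 was found at day 2 and 0 at each other day and in the summed counts, whereas 10.9%, 10.2%, 5.27% and 9.13% of all genes were found on the 4 days in turn and 9.05% in the summed counts. None was called by the DESeq2 Wald test or in any other of the 107 alternatives over these comparisons and the interaction tests. The 1 gene was Cbx2, at 32.4 ± 1.18 CPM in het and 23.7 ± 7.35 CPM in wt at day 2 (SD, n = 3), with a log2 fold change of 0.44 ± 0.19 (adjusted p 0.421) and an unadjusted p of 0.0309. The groups overlapped through wt line 2, and the value was 0.72 without that line (adjusted p 0.0580) and 0.28 without wt line 1 (adjusted p 0.674). The summed endoderm markers given above were higher in wt at days 0 and 2. Of 26 cell type markers tested at day 2 (naive, pluripotency, epiblast, NMP and endoderm), 8 were called lower in het and 0 higher, beside 0.551% of all genes. The part of these markers in any of these differences was not tested. At day 0 each het library had more Rnf2 than each wt library, with an adjusted p of 0.493. It was the 1 subunit without overlap on that day, where 16.5% of all genes did not overlap.

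The summed counts gave the narrowest intervals. They add raw counts, so days with deeper libraries weigh more, and wt line 2 had only 7102655 counts at day 2.5. The part of this weighting of days in the values below was not tested. The log2 fold change of het against wt was 0.05 for Rnf2 (-0.09 to 0.20), 0.09 for Pcgf6 (-0.04 to 0.22) and -0.04 for Cbx7 (-0.17 to 0.09). It was -0.03 for Pcgf2 (-0.22 to 0.16), 0.03 for Cbx2 (-0.19 to 0.25) and -0.07 for Bmi1 (-0.31 to 0.18). For Ring1 it was -0.03 (-0.34 to 0.29) and for Pcgf1 -0.13 (-0.44 to 0.17). The signs for Ring1, Pcgf2 and Cbx2 changed when some single lines were left out. In each of these 8 genes the 95% interval left out a fall as large as that of Smchd1 itself, -0.76. Cbx8 had the lowest value, -0.54 (-1.19 to 0.11, adjusted p 0.633), and its interval did reach that size.

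**Figure D4:**
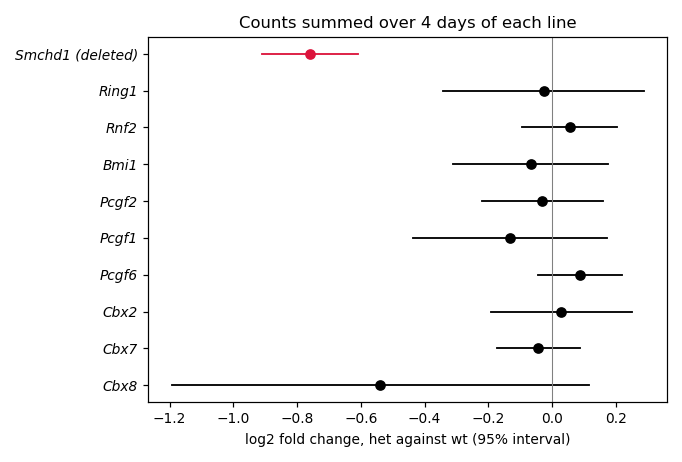
Log2 fold change of het against wt (horizontal axis) with its 95% interval for the 9 subunits in black and for Smchd1, the deleted gene, in red, from counts summed over the 4 days of each of 3 lines per genotype. Smchd1 lies at -0.76, and the interval of each subunit includes 0, with that of Cbx8 widest at -1.19 to 0.11.

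Whether the change between days differed with genotype was tested by the interaction term. It called 0% of all genes for day 2 against day 0, 0% for day 2.5 against day 2, 0% for day 3 against day 2.5 and 0% for day 3 against day 0, and 0 of the 9 subunits in each. With an unadjusted p under 0.05, Cbx2 alone was found in the first (difference of log2 fold changes 0.56 ± 0.24, adjusted p 0.778) and in the second (-0.62 ± 0.26, adjusted p 0.952), and no subunit in the latter pair. The share of all genes found in this way was 6.31%, 5.13%, 3.85% and 8.79% in the same order. Both values of Cbx2 rest on the same libraries of day 2. Without wt line 1 they were 0.29 and -0.26, and without wt line 2 they were 0.91 and -0.94. For the change from day 0 to day 3, the interval of the difference (het minus wt) was -0.64 to 0.54 for Bmi1, -0.23 to 0.26 for Pcgf6 and -0.21 to 0.44 for Cbx7.

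Other genes of PRC1 changed as well. They were listed as 26 further genes, among them other PCGF and CBX genes, the PHC and SCM polymer-forming subunits, RYBP and YAF2, and the partners of the variant complexes, of which 25 passed the filter in each comparison between days and Auts2 did not. From day 0 to day 3, 8 rose and 12 fell in wt, and 10 rose and 13 fell in het, against the 27% and 26.6% of all genes in wt and 32.7% and 31.6% in het given above, with medians of -0.26 and -0.23 on the log2 scale. In 20 of the 25 the call was made in both genotypes in one direction, 8 up and 12 down, as it was in 24.8% (up) and 24.4% (down) of all genes tested in both. The largest falls were those of L3mbtl2, a partner of PCGF6, from 283 ± 17.6 CPM to 74.8 ± 11.03 CPM in wt (log2 fold change -1.91, het -1.70), of Phc1, a polyhomeotic subunit of canonical PRC1, from 513 ± 4.96 CPM to 143 ± 22.3 CPM (-1.83, het -1.36), and of Fbrsl1 (-1.63, het -1.10). The largest rises were those of Scml2, an SCM subunit, from 4.99 ± 1.70 CPM to 16.1 ± 0.686 CPM in wt (1.70, het 1.85), of Yaf2 from 8.65 ± 2.97 CPM to 27.7 ± 2.998 CPM (1.69, het 1.66), and of Bcorl1, a partner of PCGF1 (1.65, het 1.21). Rybp, the paralog of Yaf2, fell, with -0.81 in wt and -1.08 in het, and of the DNA-binding partners of PCGF6, Max (-1.05 and -0.99) and Mga (-0.36 and -0.69) fell and E2f6 (0.61 and 0.52) rose. These 4 genes were named after their values were seen. The wt call of Mga was lost without line 3 (adjusted p 0.107).

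**Figure D5:**
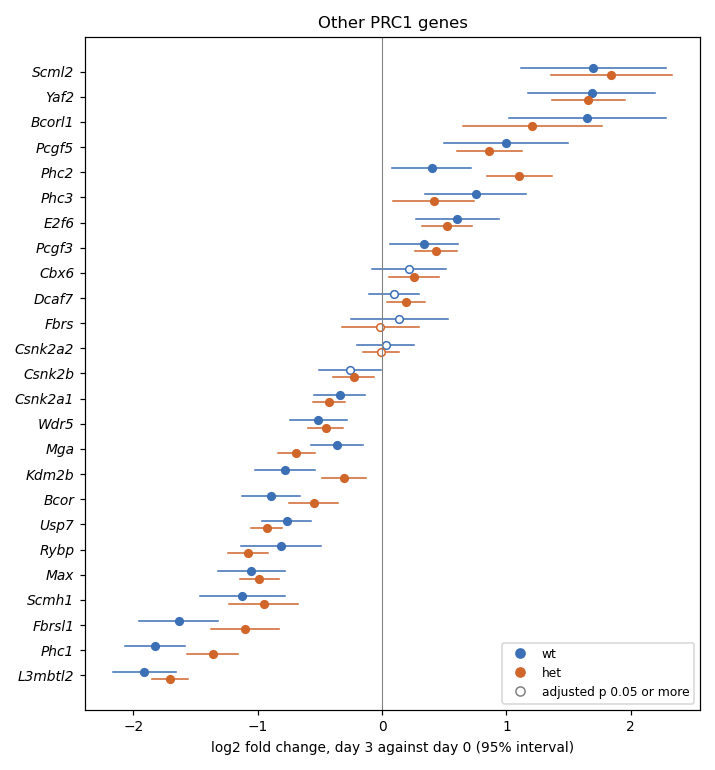
Log2 fold change from day 0 to day 3 (horizontal axis) with its 95% interval for the 25 further PRC1 genes that were tested, in order of their mean change, wt in blue and het in orange, with filled points for an adjusted p under 0.05. L3mbtl2 lies lowest at -1.91 in wt and Scml2 highest at 1.70.

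By step, 4 of the 25 rose and 8 fell from day 0 to day 2 in wt, 5 and 5 from day 2 to day 2.5, and 3 and 5 from day 2.5 to day 3. In het these were 9 and 8, 7 and 9, and 3 and 6. The share of all genes called in each step is given above with the subunits. With a line left out the counts of the steps changed: in wt the called genes went from 10 to 5 without line 2 at day 2.5 against day 2, and from 8 to 0 without line 2 and 2 without line 3 at day 3 against day 2.5. In het they went from 16 to 9 without line 1 at day 2.5 against day 2, and from 9 to 4 without line 2 and 3 without line 3 at day 3 against day 2.5. In one fit of all 24 libraries the 10 of wt day 2.5 against day 2 were 16. Enzymes that remove ubiquitin from H2A, the BAP1 complex, USP16 and MYSM1, and their partners were listed as 9 genes, all tested. At day 3 against day 0, 1 rose and 2 fell in wt, and 1 rose and 5 fell in het, with medians of -0.25 and -0.32. Of all genes, 27% rose and 26.6% fell in wt, and 32.7% rose and 31.6% fell in het. Called in both genotypes were Foxk2, which rose (0.65 in wt, 0.68 in het), and Asxl1 and Foxk1, which fell (Asxl1 -0.82 and -0.87, Foxk1 -0.51 and -0.34). The Foxk1 call was lost in wt without line 1 (-0.26, adjusted p 0.194) or line 3 (adjusted p 0.0894), and in het without line 1 (0.0982) or with library totals in place of TMM factors (0.0888). In het against wt, 0 genes of either list were called at any day or in the summed counts, and 4, 2, 0 and 1 of the 25 had an unadjusted p under 0.05 on the 4 days in turn, as did 1, 1, 0 and 1 of the 9. Of all genes, 10.9%, 10.2%, 5.27% and 9.13% had such a p. The interaction called 0 genes of either list, and 5, 2, 2 and 6 of the 25 and 1, 1, 1 and 2 of the 9 had an unadjusted p under 0.05 for day 2 against day 0, day 2.5 against day 2, day 3 against day 2.5 and day 3 against day 0 in turn, beside 6.31%, 5.13%, 3.85% and 8.79% of all genes. Without the filter on low counts, Kdm2b was called at day 0 (log2 value -0.32, adjusted p 0.0295) and Phc1 at day 3 (log2 value 0.48, adjusted p 0.00506), and the interaction for day 3 against day 0 called Phc1 (log2 value 0.45, adjusted p 0.0482) and Phc2 (log2 value 0.69, adjusted p 0.0498). No other alternative called a gene of either list in these comparisons.

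Across the 24 libraries, which share lines and days, the genes most like each subunit in log2 CPM were found among 12457 genes averaging 50 counts or more, as a description. Closest to Pcgf6 were Zfp473 (r 0.96), Nqo1 (r 0.96) and Eif5a (r 0.95), and closest to Cbx7 were Bcat2 (r 0.95), Gm38393 (r 0.95) and Gtsf1l (r 0.95). Closest to Bmi1 were St3gal6 (r 0.94), Cd47 (r 0.93) and Cfl2 (r 0.93). For Rnf2 they were Smc4 (r 0.90), Stag1 (r 0.90) and Zfp81 (r 0.90), of which Smc4 and Stag1 encode subunits of condensin and cohesin. For Pcgf2 they were Cnot3 (r 0.89), Qtrt1 (r 0.89) and Gm49527 (r 0.89), and for Cbx2 Nin (r 0.84), Trim35 (r 0.82) and Gbx2 (r 0.77). Ring1 was closest to Xrcc3 (r 0.82), Gtf3a (r 0.81) and Ccdc71 (r 0.81), and Pcgf1 to Dnttip1 (r 0.84), Smarcc2 (r 0.82) and Ccdc82 (r 0.81). For Cbx8, with few counts, they were Fam189a2 (r 0.82), Lyn (r 0.77) and Sdc3 (r 0.76). Between subunits the coefficient was 0.83 for Pcgf6 and Cbx7, which fell together, -0.83 for Pcgf6 and Bmi1, -0.75 for Bmi1 and Cbx7, -0.74 for Pcgf1 and Pcgf6, and -0.68 for Pcgf2 and Bmi1.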

How the data were processed

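Poly(A) RNA was sequenced in 24 libraries. Per the submitters' processing notes, reads were trimmed with Trim Galore 0.4.4 and aligned with HISAT2 2.0.5 to GRCm38.p6, and the authors deposited raw counts per gene from SeqMonk, without normalization. Libraries were made with either a stranded or an unstranded kit, not recorded per library, and the counting of reads where genes overlap is not given in the sources used here. The 8 deposited columns of group means (score values, each the authors' mean of 3 counts) were not used, nor were both deposited log2 RPKM tables, which hold none of these genes. The 9 subunits and the gene lists were chosen with earlier results of these data known, and 1 listed gene is not reported here.

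The test was edgeR 4.0.16 in R 4.3.3 (TMM factors, filterByExpr by group, quasi-likelihood test), with calls at a Benjamini-Hochberg adjusted p under 0.05 over all genes tested. CPM used TMM factors, and log2 CPM a prior count of 2. Named genes were the 9 subunits, Smchd1, the 3 genes closest to each subunit in log2 CPM, and, from each list, the 3 largest rises and falls from day 0 to day 3 called in both genotypes. Rybp, Max, Mga, E2f6, Kdm2b and Phc2 fall outside this rule and were named after their values were seen. Figures used matplotlib 3.10.9. Days of a line come from the same line and could be paired, and same-line deviations correlated at -0.10 to 0.48 over 36 pairs of libraries (median 0.09). Whether wt and het lines with one number are related is not given in the labels. Their deviations correlated at -0.28 to 0.20 over 36 pairs of libraries from different days (median -0.000457). Alternatives were DESeq2 size factors, library totals, genes with at least 1 count, the DESeq2 1.42.0 Wald test, one fit of 24 libraries, the line as a replicate block, and leaving out each line. Tested on simulated data at the depth of day 2, with 200 genes changed 4-fold at a dispersion of 0.02, het against wt called 200 of 200 and 11 others of 15384. In the same way wt day 3 against day 0 called 193 of 200 and 13 others of 15527, and the interaction for these days 174 of 200 and 8 others of 15960. Changes under 4-fold were not simulated. Intervals cover the spread between lines, and the floor of 3 counts covers counting error only. Exon lengths, overlaps and 75-base uniqueness came from the GENCODE annotation of GRCm38.p6, which held 35544 of 35581 identifiers.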

Additional observations from a re-analysis of the deposited data

How the results depend on the processing

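Of the 30 calls of a single subunit between days, 15 were kept in every alternative, 15 were lost in at least 1, and 0 changed direction. The number of subunits called stayed at 0 in all 107 alternatives of het against wt and of the interaction. With a line left out, the subunits called ranged over 2 to 4 for wt day 2 against day 0 and 0 to 1 for wt day 2.5 against day 2. They ranged over 1 to 3 for het day 2.5 against day 2, 0 to 2 for wt day 3 against day 2.5 and 0 to 1 for het day 3 against day 2.5. With 2 lines left, fewer libraries enter the fit.

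Counts over all genes moved more. Without the filter, het against wt called 369, 384, 87 and 274 genes on the 4 days in turn and 190 in the summed counts, and the DESeq2 Wald test called 84, 234, 3, 116 and 145. One fit of all 24 libraries called 1, 23, 1 and 15. The line number as a replicate block called 25 at day 0, 100 at day 3 and 50 in the summed counts, where the unblocked fit called 0, 1 and 1. Whether lines with one number are related between genotypes is not given in the labels. For the interaction, the fit without the filter called 58 (day 2 against day 0), 33 (day 2.5 against day 2), 23 (day 3 against day 2.5) and 173 (day 3 against day 0) genes. In the first and the last of these, the Wald test called 6 and 15 and the replicate block 2 and 4. For wt day 3 against day 2.5, pairing by line as a replicate block called 4687 genes. It changed no call of a subunit other than that of Pcgf1 given above. With a line left out, het against wt called 0 to 68, 0 to 211, 0 to 3 and 0 to 93 genes on the 4 days in turn and 0 to 404 in the summed counts. Steps in wt called 4152 to 6363 (day 2 against day 0), 2249 to 3875 (day 2.5 against day 2) and 29 to 3098 (day 3 against day 2.5), and in het 2386 to 3032 (day 3 against day 2.5). The interaction called 0 to 2 (day 2.5 against day 2), 0 to 1 (day 3 against day 2.5) and 0 to 1 (day 3 against day 0). The cause of these shifts was not tested.

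In the sums over days, the sign of het against wt changed with a line left out for 3 subunits, over ranges of -0.0973 to 0.0899 for Ring1 (other sign without wt line 1 or het line 3), -0.115 to 0.0279 for Pcgf2 (wt line 1 or het line 2) and -0.0374 to 0.135 for Cbx2 (wt line 2, wt line 3 or het line 1). None of these values was called. Depth is lowest for Cbx8, with 2 to 61 counts per library.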
